A study of Canis lupus familiaris with 48 samples.

Results

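MDCK I cells, an established epithelial line from dog kidney, were compared after 24 h in medium with added NaCl and in regular isosmotic medium. All libraries whose labels name NaCl or control were taken, 24 of the 48 in the series: 12 NaCl libraries (200 mOsm of added NaCl, 500 mOsm in all, 24 h) and 12 control libraries (regular medium, 300 mOsm). Raffinose and urea (12 libraries each, the same osmolality and time as NaCl) are described only where NaCl was set directly against another solute. Their libraries also entered the low-count filter, the scaling and the estimate of spread in the fit of NaCl against control. Every group shared the cell line, the serum-containing medium and a culture time of 144 h, and each group held 1 library at each of 12 cell passages (1, 4, 5, 7, 8, 10, 11, 13, 14, 16, 17 and 19). The sources used here do not say if libraries of a passage share a culture. The replicates are passages of 1 line, so p-values measure the spread between passages. The study's stated subject was membrane transporters under hyperosmotic stress. The genes carry Ensembl identifiers without symbols, so no transporter or marker is named here, and the labelled cell type was not checked against its markers.

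Cells of the kidney medulla live in fluid whose salt concentration changes with the state of the urine. Added NaCl stays largely outside the cell, draws water out and concentrates the cell's contents. As background from this field, kidney cells answer over hours by taking up or making small organic osmolytes such as betaine, inositol and sorbitol, under control of the transcription factor NFAT5, and by raising chaperones. Urea crosses most cell membranes and draws out less water, whereas raffinose, a trisaccharide, stays outside.

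Libraries held between 6.77 and 14.4 megareads (M) counted over genes after NaCl (median 11.93 M) and between 6.08 and 16.06 M in control (median 10.24 M). Levels are given as counts per M reads (CPM), scaled by TMM factors, which correct the totals for shifts in makeup. A gene was called where edgeR's quasi-likelihood test gave a Benjamini-Hochberg adjusted p under 0.05 over all 12654 genes tested. Errors of levels are SDs over 12 libraries, and errors of log2 fold changes are standard errors.

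NaCl changed the level of most genes that the cells expressed, in both directions, and most of these changes were small. Of the 12654 genes tested, 8949 were called (70.7%): 4375 were higher after NaCl than in control (34.6%) and 4574 were lower (36.1%). The median log2 fold change was 0.60 among called higher genes and -0.58 among called lower genes. When libraries were scaled by their totals alone, the median of all tested genes moved to -0.19, against -0.02 with TMM factors, and the share of calls that were higher moved to 34.5%, against 48.9%. Directions of small changes are therefore relative to the TMM scaling, and totals-only values are given beside most splits that move with it.

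Changes of 4-fold or more leaned upwards under either scaling, while the lean of smaller ones depended on it. Called genes at least 2-fold higher numbered 1243 (9.82% of those tested), and 991 were at least 2-fold lower (7.83%). At 4-fold or more there were 470 higher and 162 lower genes, at 8-fold or more 196 and 33, and at 16-fold or more 96 and 13. At 1.2-fold or more the order was the other way, with 3822 higher and 4036 lower genes. With totals only, 998 genes were at least 2-fold higher and 1391 at least 2-fold lower, so the order turned round at 2-fold, whereas at 4-fold or more there were 399 higher and 215 lower genes and at 8-fold or more 175 and 41. The counts at 2-fold also depended on how low a level was admitted. Among genes with a mean of at least 5 CPM, 755 were at least 2-fold higher and 664 at least 2-fold lower. With no filter on low counts there were 2412 and 1535. Counts at 4-fold or more are not given for these filters.

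**Figure D1:**
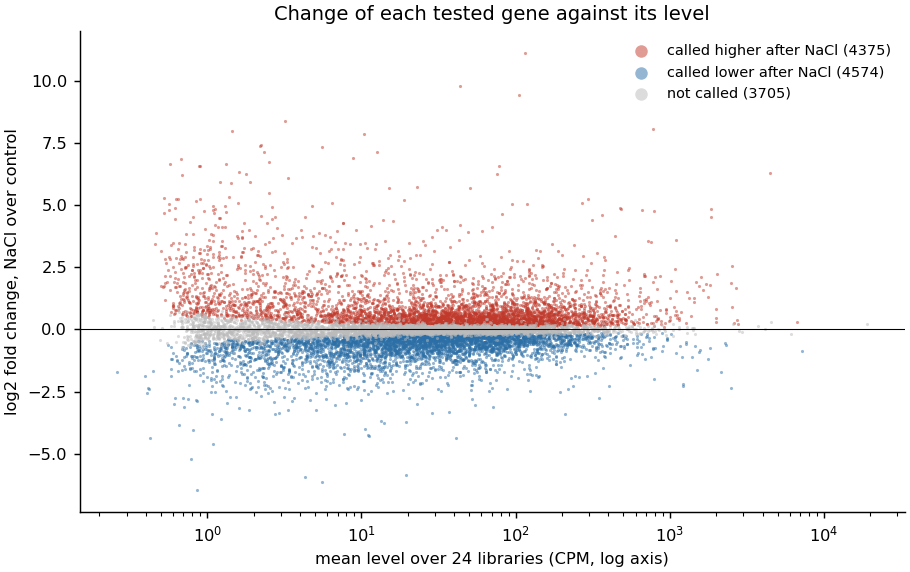
Log2 fold change, NaCl over control, of each of the 12654 tested genes (vertical axis) against its mean level over the 24 libraries in CPM (horizontal log axis). The 4375 genes called higher reach farther from 0 than the 4574 called lower: 196 were at least 8-fold higher and 33 at least 8-fold lower.

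Most large changes recurred at every passage. In 5888 tested genes (46.5%) the NaCl library lay on the same side of the control library in all 12 same-passage pairs, 3003 of them higher and 2885 lower after NaCl. Of these, 2995 were called higher and 2880 called lower. The 12 NaCl libraries did not overlap the 12 control libraries at all in 3065 genes (24.2%), of which 1671 were higher and 1394 lower after NaCl. With totals only, 2135 genes were higher and 4064 lower in all 12 pairs, and 1177 lay above and 2066 below control without overlap. Among called genes of at least 2-fold, 2049 of 2234 (91.7%) moved the same way in all 12 pairs, against 151 of 1091 (13.8%) among called genes under 1.2-fold. Calls and fold classes come from the same libraries as the pair directions, so a large change favours 1 direction by construction. Of all 8949 called genes, 468 moved in the called direction in 9 pairs or fewer.

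The shift of reads was concentrated on the rising side. Genes with a larger share of the reads after NaCl together gained 19.2% of all reads, and 118 genes held 50% of this gain. The matching loss was spread more widely, with 387 genes holding 50% of it. The 10 largest gainers took 16.3% of the gain and the 10 largest losers 11.7% of the loss. A gain in CPM counts reads and is not corrected for gene length.

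The gene with the largest gain in reads was ENSCAFG00000013762 (CanFam3.1, chromosome 7, 19668011 to 19674918, minus strand, 10 exons after overlapping exons are merged). Its NaCl libraries ran from 2833 CPM (passage 5) over a median of 9686 to 13076 CPM (passage 13), and its control libraries from 50.7 CPM (passage 19) over a median of 103 to 203 CPM (passage 4). The groups were far apart, with every NaCl library above every control library. The mean was 8832 ± 2940 CPM after NaCl and 112 ± 46.5 CPM in control (SD, n = 12 each), a log2 fold change of 6.29 ± 0.26 (adjusted p = 2.12e-27, edgeR), higher in 12 of 12 pairs. It alone accounted for 4.35% of the gain, and its reads made up 0.849% of all reads after NaCl and 0.0122% in control. Genes were named only if they moved the same way in all 12 pairs. Their pair counts against control are therefore not separate results.

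The next largest gain among genes that met the naming rule was that of ENSCAFG00000004481 (chromosome 20, 4531730 to 4616854, plus strand, 15 exons). Its level ran from 3193 CPM over a median of 4026 to 7055 CPM after NaCl and from 597 over 727 to 937 CPM in control, without overlap. The log2 fold change was 2.53 ± 0.13 (adjusted p = 1.46e-23, edgeR; 12 of 12 pairs). The highest library of both groups was that of passage 17. Neither of its nearest tested neighbours was called: their log2 fold changes were -0.05 ± 0.07 on the lower-coordinate side and -0.10 ± 0.07 on the other.

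The largest loss of reads fell on a very short gene, ENSCAFG00000022843 (chromosome 18, 46206389 to 46206483, minus strand, 1 exon of 95 bases). Its reads made up 0.494% of all reads after NaCl and 1.02% in control. The libraries ran from 2656 CPM over a median of 5246 to 8103.5 CPM after NaCl and from 4631 over 9671 to 14620 CPM in control. The groups overlapped, and the lowest library of both groups was that of passage 17. As the naming rule required, the NaCl library was the lower one in 12 of 12 pairs. The log2 fold change was -0.88 ± 0.20 (adjusted p = 0.000121, edgeR), and the gene was not called against a minimum fold of 1.5. Its nearest tested neighbours were single-exon genes of 71 and 69 bases on the plus strand, with log2 fold changes of -0.94 ± 0.20 and -0.86 ± 0.21. The gene and these neighbours lie between 46206173 and 46207250, and reads were counted without regard to strand. Whether they are separate transcripts was not tested. Reads that match several places may be counted with less certainty in genes of this length.

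The next largest loss among genes that met the naming rule was that of ENSCAFG00000023647 (chromosome 9, 21240778 to 21245039, plus strand, 6 exons). Its level ran from 637 CPM over a median of 830 to 1150.9 CPM after NaCl and from 3468 over 3884 to 5944.6 CPM in control, without overlap. The mean was 821 ± 162 CPM after NaCl and 4203 ± 715 CPM in control (SD, n = 12 each), a log2 fold change of -2.36 ± 0.11 (adjusted p = 8.86e-25, edgeR), lower in 12 of 12 pairs. The nearest tested gene on the lower-coordinate side, on the same strand (21190672 to 21195060), moved the opposite way: 140 ± 39.2 CPM after NaCl and 36.2 ± 12.4 CPM in control, a log2 fold change of 1.96 ± 0.15 (adjusted p = 2.64e-16, edgeR). None of these 4 genes overlaps another annotated gene.

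**Figure D2:**
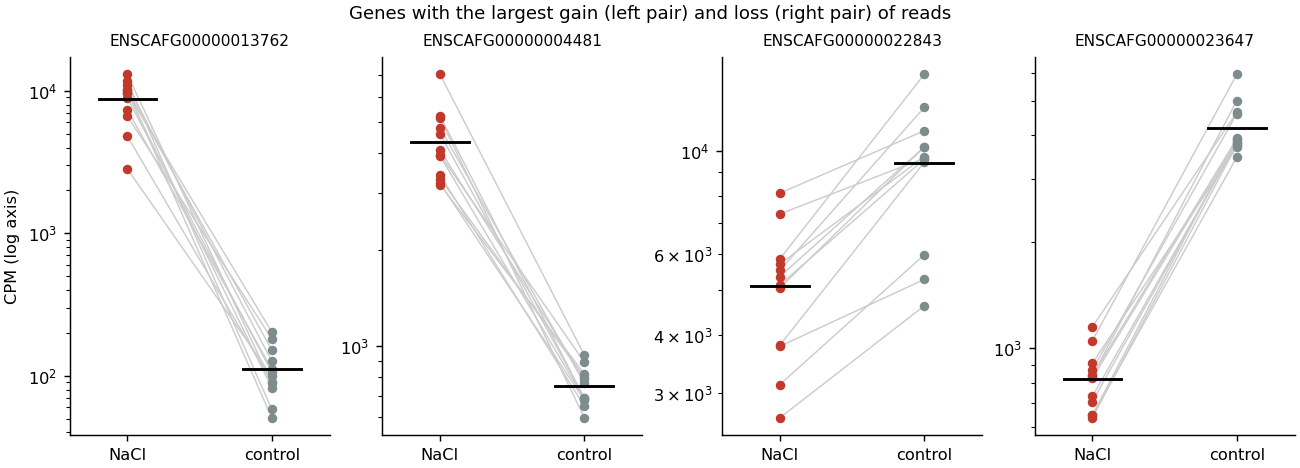
Level (CPM, log axes that differ between panels) of the 2 genes with the largest gain and the 2 with the largest loss of reads that met the naming rule, NaCl left and control right; points are libraries, grey lines join libraries of a passage and black bars are means of 12. The groups do not overlap except in ENSCAFG00000022843, where the NaCl libraries reach 8103.5 CPM and the control libraries start at 4631 CPM. The naming rule required all grey lines of a panel to point the same way.

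Few genes went from silent to expressed. With silent taken as at most 3 reads over the 12 libraries of a group, 15 genes were silent in control and reached a mean of 1.03 to 6.35 CPM after NaCl. All 15 had reads in each of the 12 NaCl libraries, they held 24 reads in all the control libraries together, and they lay on 13 chromosomes. The reverse was seen in 1 gene, which had 1.72 CPM in control and 1 read in all NaCl libraries together. With up to 12 reads allowed, the counts were 46 and 6.

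More genes crossed the level of 1 CPM after NaCl. A library held 12130 ± 71.2 such genes after NaCl and 11967 ± 87.9 in control (SD, n = 12 each), a difference of 163 (two-sided unpaired permutation test with 100000 resamples, p = 0.00012, adjusted over 2 measures 0.00012), higher in 12 of 12 pairs. At 5 CPM the difference was the other way, -87.8 genes (p = 0.00068), lower in 11 of 12 pairs, and with totals-only scaling it was 56.2 genes (p = 0.16). The 100 most abundant genes took 21.3 ± 0.90% of reads after NaCl and 19.5 ± 0.796% in control, a difference of 1.88 percentage points (p = 0.0001, adjusted 0.00012; higher in 12 of 12 pairs). For the 10 most abundant genes the shares were 6.77% after NaCl and 6.76% in control (p = 0.96).

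The direction of change varied with the level of the gene. The share called higher was 43.1% of the 499 genes with a mean under 1 CPM over the 24 libraries (19.8% lower), and 27.3% of the 1203 genes from 5 to 10 CPM (43.6% lower). It was 47.7% of the 2116 genes from 100 to 500 CPM (29.5% lower) and 50.6% of the 245 genes at 500 CPM or more (24.1% lower). In these most abundant genes 21.6% were at least 2-fold higher and 5.31% at least 2-fold lower. With totals only the same classes had 38.1%, 19.8%, 35.4% and 39.2% called higher and 25.3%, 54.5%, 42.2% and 34.3% called lower, so that the lowest and the highest class still had more genes higher than lower and the class from 100 to 500 CPM did not. A gene near the filter on low counts had to be high in some libraries to be tested, and the mean itself contains the NaCl libraries, so the classes are a description.

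Long genes were called higher more often than short ones. The tested genes were split into quintiles by summed exon length. In the quintile with the shortest exons (52 to 1050 bases), 26.2% were called higher and 38.5% lower, with a median log2 fold change of -0.12. In the quintile with the longest (4594 to 105543 bases), 41% were called higher and 32.3% lower, with a median of 0.06. By exon number the order was not even: 27.9% of the 872 genes of a single exon were called higher, 35.9% of the 961 genes of 2 exons, 31.1% of those of 3 to 5, 33.6% of those of 6 to 10, and 46% of the 235 genes of more than 40 exons. The shares called lower in these classes were 34.4%, 29.2%, 37%, 38.6% and 28.1%. Under totals-only scaling the shortest quintile had 18.5% called higher and 50.2% lower, and the longest 30.5% and 44.7%, so that more genes were lower than higher in both.

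The length difference held in most passages and in part within levels. The median log2 ratio of the shortest quintile lay below that of the longest in 11 of 12 same-passage pairs, with a difference of -0.359 at passage 10, the farthest. At passage 8 it lay above, with a difference of 0.123. Among genes with at least 50 CPM, 30.6% of the shortest quintile and 46.1% of the longest were called higher, and 42.9% and 28% lower. From 10 to 50 CPM the shares were 25.6% and 29.7% higher and 41.9% and 43.8% lower, with medians of -0.12 and -0.10. There the longest quintile thus had more calls both ways. From 1 to 10 CPM the shares were 24.4% and 35.6% higher and 37% and 34.8% lower. The libraries themselves differed in this measure: the mean log2(CPM + 1) of the shortest quintile minus that of the longest ran from -2.52 over a median of -2.30 to -2.12 after NaCl and from -2.37 over -2.23 to -1.94 in control. The part of RNA quality or library preparation in this was not tested.

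Chromosome 14 had the highest share of genes called higher after NaCl (44.3% of 221 genes, 34.8% lower) and chromosome 30 the lowest among the 39 chromosomes (26.9% of 286 genes, 42.7% lower). Over all tested genes 34.6% were called higher and 36.1% lower. Genes called higher outnumbered those called lower on 18 of the 39 chromosomes with TMM scaling and on 0 with totals-only scaling. Of the 31 tested genes of the mitochondrial genome, 6 were called higher (19.4%) and 5 lower (16.1%), smaller shares than over all tested genes. None, 0 of 31, changed by 2-fold or more, where 9.82% of all tested genes were called at least 2-fold higher and 7.83% lower. With totals only 0 of the 31 were called higher and 11 lower.

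Adjacent genes moved together more often than distant ones. Among 6389 pairs of adjacent tested genes that were both called, 58.9% moved the same way. The share was 53.4% for genes 2 places apart, 51.2% for 5 places and 50.2% for 10 places. It was 71.8% where the genes overlapped, 65.6% where the gap was under 1 kb and 54.6% over 100 kb. Overlapping genes are the least certain, since reads were counted without regard to strand. Among adjacent genes that did not overlap, 61.9% of 1529 pairs whose starts faced each other moved the same way, 57.3% of 2939 pairs on the same strand and 55.1% of 1471 pairs whose ends faced each other. These are shares over gene pairs of the same libraries, and pairs share genes, so no test was made. Under totals-only scaling, where most calls were lower, the shares were 63.3% for adjacent genes and 54.6% for genes 10 places apart.

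**Figure D3:**
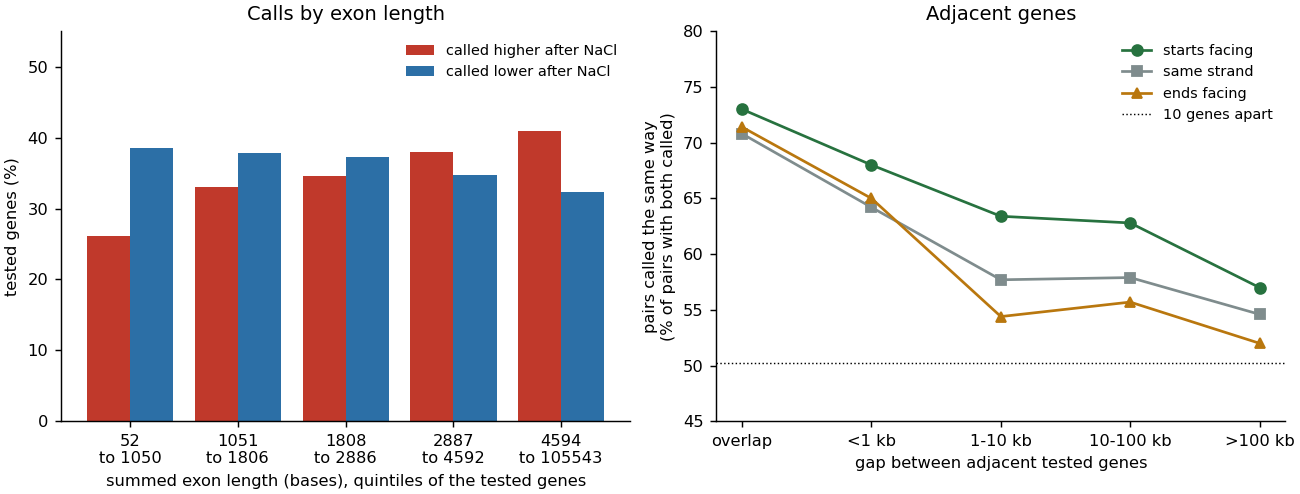
Left, percent of tested genes called higher or lower after NaCl in quintiles of summed exon length; with TMM scaling the share called higher is 26.2% in the shortest and 41% in the longest quintile, and with totals only (not drawn) more genes are lower than higher in both. Right, percent of adjacent pairs, both called, that moved the same way, by gap and orientation; the dotted line marks genes 10 places apart (50.2%), and pairs with starts facing lie highest at every gap.

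Runs of neighbours called the same way reached 14 genes. There were 23 runs of at least 8 consecutive tested genes, 12 higher and 11 lower after NaCl, and with totals only 3 higher and 45 lower ones. The longest was lower and lay on chromosome 18 from 45793451 to 46473960, with 14 genes, log2 fold changes from -3.24 to -0.25 and a median of -1.44; 12 of the 14 were lower in all 12 pairs. It contains ENSCAFG00000022843 and its short neighbours, which may not be separate transcripts. The longest higher run had 12 genes on chromosome 21 from 41783348 to 48759266 (median log2 fold change 0.90), a wider stretch, and 9 of its genes were higher in all 12 pairs.

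Of 28 runs of at least 4 consecutive tested genes that were each called and at least 2-fold changed, 24 were higher and 4 lower after NaCl; with totals only there were 14 higher and 10 lower ones. The longest had 7 genes on chromosome 2 from 59225998 to 59706199, with log2 fold changes from 1.59 to 5.31 (median 1.92), and all 7 were higher in all 12 pairs. Among runs of 5 or more genes, 6 were higher and 1 was lower, and with totals only 4 were higher and 2 lower. The lower one had 5 genes on chromosome 17 from 36863739 to 37297281, with log2 fold changes from -2.76 to -1.11 (median -1.73).

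The size of the response was alike across passages. At each passage the log2 ratio of the pair was set against the mean log2 ratio of the other 11 passages over all tested genes. The slope ran from 0.872 at passage 5 to 1.042 at passage 11, where 1 means a response as large as in the other passages, and the correlation across genes ran from 0.882 at passage 8 to 0.948. Between 1568 genes (passage 5) and 2160 genes (passage 1) differed by at least 2-fold within a pair, on the log2(CPM + 1) scale. On an axis from the mean control (0) to the mean NaCl library (1) of the other passages, NaCl libraries lay from 0.861 at passage 5 to 1.073 at passage 17, and control libraries from -0.016 to 0.046. At passage 5 the gene with the largest gain, ENSCAFG00000013762, also had its lowest NaCl level.

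Passage 8 had the most exceptions, with 765 called genes moving against the common direction, followed by passage 19 with 624; passage 4 had the fewest, 245. The control library of passage 8 was the shallowest of the 24, at 6.08 M, and that of passage 19 the deepest, at 16.06 M. The shallowest NaCl library, at 6.77 M, was that of passage 14, which had 373 exceptions. The part of depth in the exceptions was not tested. Without passage 8, 8838 genes were called for NaCl against control.

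**Figure D4:**
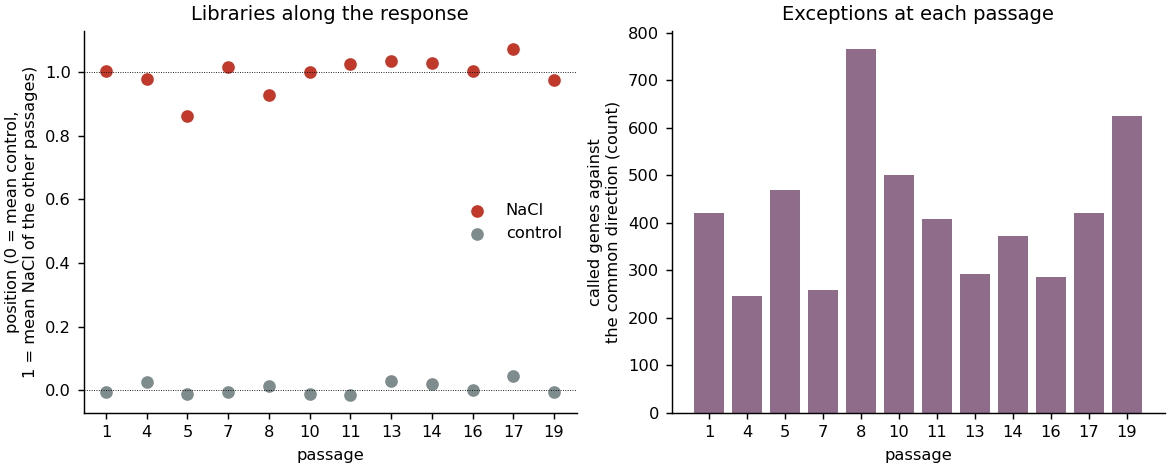
Left, position of each library on the axis from the mean control (0) to the mean NaCl library (1) of the other passages, by passage; NaCl libraries lie from 0.861 to 1.073 and control libraries from -0.016 to 0.046. Right, bars count the called genes that moved against the common direction within the pair of each passage, from 245 at passage 4 to 765 at passage 8.

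Over all 12 passages, no relation between the response to NaCl and passage number passed a test. The slope of each passage had a Pearson r of 0.37 with passage number (permutation p = 0.24) and a Spearman rho of 0.16 (p = 0.62) over 12 passages, and with 3 settings of this relation computed the lowest p was 0.2. Without passages 1 and 19, the farthest from the median, r was 0.64 (permutation p = 0.047) and rho 0.47 (p = 0.18), with p not adjusted, so the value rests on which passages are included. A NaCl-by-passage term fitted over the 24 libraries called 0 of 12188 genes with edgeR (lowest adjusted p = 0.951), where 629 (5.16%) had an unadjusted p under 0.05. DESeq2 also called 0, with 639 at an unadjusted p under 0.05. With the passage as a replicate block the term called 0, with 1188 genes (9.75%) at an unadjusted p under 0.05 and a lowest adjusted p of 0.105. In simulated counts of this size, 34.3% of genes changing 1.5-fold per 10 passages were recovered and 73.1% of those changing 2-fold, so smaller trends could be missed.

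The spread between libraries was alike in the groups. The median SD of log2 CPM over 12 libraries was 0.21 after NaCl and 0.21 in control, and 48.8% of genes had the larger SD after NaCl.

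Set directly against the other solutes at the same osmolality, NaCl differed from raffinose in 1948 of 12654 genes (15.4%), of which 939 (7.42%) were higher and 1009 (7.97%) lower after NaCl. With totals only, 1542 genes were called higher and 628 lower than after raffinose, and with the passage as a replicate block 1775 and 1820, or 3595 in all. NaCl differed from urea in 9183 genes (72.6%), of which 4519 (35.7%) were higher and 4664 (36.9%) lower after NaCl (3800 and 5378 with totals only). These comparisons share the NaCl libraries with the one against control. Genes in which NaCl stood apart in the same direction from raffinose, urea and control, by all 3 tests, numbered 187 (1.48% of those tested), 101 higher and 86 lower after NaCl. With the passage as a replicate block the count was 430, and against a minimum fold of 1.5 it was 3. In 5 of the 101 the NaCl level was at least 2-fold above that after raffinose, and in 6 of the 86 at least 2-fold below it.

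The gene farthest above raffinose under the naming rule was ENSCAFG00000017664 (chromosome 7, 45378307 to 45408131, minus strand, 10 exons). Its level ran from 60.2 CPM over a median of 86.6 to 137 CPM after NaCl, from 17.5 over 36.5 to 50.9 CPM after raffinose, from 5.35 over 9.15 to 10.4 CPM after urea and from 3.04 over 5.76 to 8.87 CPM in control. The NaCl libraries lay above all others, and the urea and control libraries overlapped. The log2 fold change of NaCl was 1.35 ± 0.15 against raffinose (adjusted p = 6.85e-09), 3.48 ± 0.17 against urea (adjusted p = 1.10e-24) and 3.90 ± 0.17 against control (adjusted p = 2.72e-26, all by edgeR). The 2 tested genes before it on the chromosome were also higher after NaCl than after raffinose, with log2 fold changes of 1.14 (45324440 to 45329834; adjusted p = 5.24e-07) and 0.79 (45354752 to 45361411; adjusted p = 0.00608), whereas the 2 after it, at 0.13 and -0.16, were not called. With the passage as a replicate block the farther of these was called lower than after raffinose (-0.16; adjusted p = 0.00879, edgeR).

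The gene farthest below raffinose was ENSCAFG00000004402 (chromosome 21, 12794707 to 12795846, minus strand, 1 exon). It had 1.58 to 6.81 CPM after NaCl (median 4.36), 5.96 to 17.6 CPM after raffinose (median 10.3), 8.40 to 22.8 CPM after urea (median 16.7) and 6.67 to 20.1 CPM in control (median 11.8). The NaCl libraries overlapped those of raffinose and of control at the edge, and the lowest count behind these values was 16 reads in a NaCl library. The log2 fold change of NaCl was -1.32 ± 0.20 against raffinose (adjusted p = 2.58e-06), -1.92 ± 0.19 against urea (adjusted p = 1.04e-12) and -1.58 ± 0.19 against control (adjusted p = 3.51e-10, all by edgeR), and it was lower than control in 12 of 12 pairs.

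**Figure D5:**
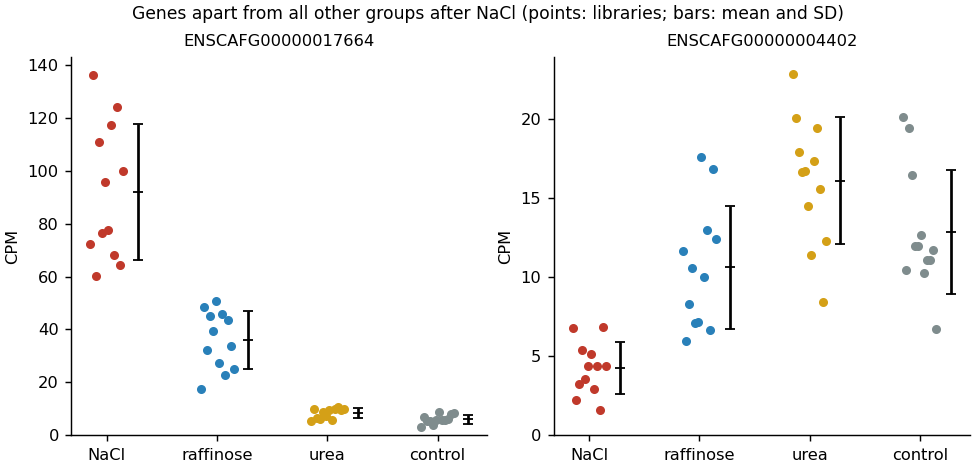
Level (CPM, axes from 0 that differ between panels) of the 2 genes in which NaCl stood farthest from raffinose under the naming rule; points are the 12 libraries of each group and bars give the mean and SD. In ENSCAFG00000017664 the NaCl libraries (60.2 to 137 CPM) lie above all others, and in ENSCAFG00000004402 the NaCl libraries (1.58 to 6.81 CPM) lie lowest and overlap the raffinose and control libraries at the edge.

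Of the 4375 genes called higher against control, 694 (15.9%) were called lower after NaCl than after raffinose and 135 (3.09%) higher. Of the 4574 called lower against control, 637 (13.9%) were called higher after NaCl than after raffinose and 122 (2.67%) lower. These splits are with TMM scaling and are not given with totals only. Under totals-only scaling 628 genes in all were called lower after NaCl than after raffinose, fewer than the 694 above, and 1542 higher. At least the split of the genes called higher against control therefore depends on the scaling. In each of the 4 genes named for their large shifts of reads the mean after raffinose lay farthest from control, then that after NaCl, then that after urea. ENSCAFG00000013762 averaged 8832 ± 2940 CPM after NaCl, 15000 ± 4990 after raffinose, 183 ± 56.7 after urea and 112 ± 46.5 in control, and its log2 fold change of NaCl against raffinose was -0.76 ± 0.21 (adjusted p = 0.00854, edgeR). ENSCAFG00000004481 averaged 4335 ± 1120 CPM after NaCl, 5651 ± 1720 after raffinose, 769 ± 123 after urea and 748 ± 102 in control, with -0.38 ± 0.12 against raffinose (adjusted p = 0.0265, edgeR). ENSCAFG00000023647 averaged 821 ± 162 CPM after NaCl, 747 ± 160 after raffinose, 3479 ± 690 after urea and 4203 ± 715 in control, and it was not called against raffinose (0.14 ± 0.11; adjusted p = 0.425, edgeR). ENSCAFG00000022843 averaged 5118 ± 1600 CPM after NaCl, 4240 ± 1690 after raffinose, 5705 ± 1770 after urea and 9390 ± 2890 in control; it was not called against raffinose (0.27 ± 0.20; adjusted p = 0.38) or urea (-0.16 ± 0.20; adjusted p = 0.481, edgeR). Within passages it was higher after NaCl than after raffinose in 12 of 12 pairs, and with the passage as a replicate block it was called, with a log2 fold change of 0.32 ± 0.08 (adjusted p = 0.00162, edgeR).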

How the data were processed

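Poly(A) RNA of 48 libraries was sequenced as single reads after a TruSeq version 2 preparation, per the labels' protocols. Raw read counts of 32704 genes were deposited as 1 table. Per the submitters' processing notes, CASAVA, HISAT2 2.0.5 and featureCounts 1.5.1 were used. Per the file headers, counting was by exon and gene, without strand, on Ensembl release 87 (CanFam3.1); exon lengths come from that deposited table. A count of 0 allows up to 3 reads, for counting error only. No 2 NaCl libraries and no 2 control libraries were alike within sampling noise (lowest chi-square per gene 6.76). Raffinose and urea libraries were not compared in this way.

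Counts were fitted with edgeR 4.0.16 in R 4.3.3 (filterByExpr, TMM, glmQLFit on group over the 48 libraries, glmQLFTest, Benjamini-Hochberg threshold 0.05). A standard error is the log2 fold change divided by the root of its F statistic. Library values are CPM on TMM-scaled totals. The common biological coefficient of variation was 17%. In simulated counts, 200 genes were changed and every group otherwise had the control profile, without passage effects. There the NaCl against control step recovered 76.1% of genes changed 1.5-fold and 95.5% of those changed 2-fold, with 4 false calls over 12255 genes. Many more genes were called in the data, so this does not measure the false calls in them. Per-library measures were tested by permutation of libraries between the groups, without regard to passage (Python 3.11.15, scipy 1.17.1).

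The passage label pairs libraries across groups. Deviations from the group mean correlated at 0.30 on average within the 12 same-passage pairs (-0.05 to 0.48, 10 over 0.1) and at -0.03 in the 132 other pairs, and 9 of 12 NaCl libraries correlated best with the control of their own passage. What the added number in the names of the passage 10 columns means is not given in the sources used here.

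Symbols could be paired with 0 of 32704 identifiers, as the reference table, of a different assembly, holds no Ensembl identifiers. Prepared gene lists and cell type markers were therefore not applied, and no sequences were read. Named genes had to be called, average at least 5 CPM and move the same way in all 12 pairs. Taken were the 2 with the largest gain and the 2 with the largest loss of mean CPM, and, among genes apart from all other groups, the highest and the lowest against raffinose. The comparison, gene groups, naming rule and tests were chosen with earlier results of these data known. Alternatives were RLE size factors, totals only, other filters on low counts, DESeq2 1.42.0, a replicate block or linear term for passage, fits of the 24 libraries alone, a glmTreat minimum of 1.5-fold, and leaving out each passage. Those on gene pairs, on length classes and on the contrasts with raffinose and urea singly were added after seeing the data.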

Additional observations from a re-analysis of the deposited data

How the results depend on the processing

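RLE size factors, DESeq2, passage as a linear term and fits of only the 24 NaCl and control libraries kept each count of called genes against control, and that of genes apart from all other groups, within 1.5 times its value where they were run. With the passage as a replicate block 9677 genes were called for NaCl against control, 9277 in the 24 libraries with the block and 8706 in the 24 libraries without it; the block moved the count of genes apart from raffinose, urea and control to 430 and that of genes called against raffinose to 3595 (9839 against urea). Of the 6 named genes it changed 1 call in the 3 contrasts, that of ENSCAFG00000022843 against raffinose (0.32, adjusted p = 0.00162), and of the neighbours given it changed that of 1 gene against raffinose. With no filter on low counts 2412 genes were at least 2-fold higher and 1535 at least 2-fold lower. Among those with a mean of at least 5 CPM the counts were 755 and 664. Against a minimum fold of 1.5, glmTreat called 3108 genes, 1642 higher and 1466 lower, left 3 genes apart from all other groups, and did not call ENSCAFG00000022843. Allowing 12 reads in a silent group gave 46 genes silent in control and 6 silent after NaCl. With totals only, 0 chromosomes had more genes higher than lower and the difference in genes detected was 56.2 (p = 0.16); at 5 CPM it reversed to -87.8; and the share of the 10 most abundant genes differed by 0.0107 percentage points (p = 0.96). The cause of these shifts was not tested, beyond the fewer or more genes that a filter admits. Leaving out each passage in turn gave 8644 to 8895 called genes (4224 to 4357 higher, 4420 to 4538 lower), 1228 to 1281 at least 2-fold higher, 974 to 1023 at least 2-fold lower, 146 to 193 apart from all other groups and 0 to 0 with a NaCl-by-passage term. Log2 fold changes of the named genes then ran from 6.19 to 6.41 (ENSCAFG00000013762), 2.48 to 2.58 (ENSCAFG00000004481), -0.94 to -0.82 (ENSCAFG00000022843) and -2.40 to -2.33 (ENSCAFG00000023647), and against raffinose from 1.3 to 1.4 (ENSCAFG00000017664) and -1.4 to -1.26 (ENSCAFG00000004402). The gene lists by symbol were not run. Depth limits the genes near 1 CPM, which rest on a few reads in the shallowest libraries.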
